A study of Mus musculus with 2 samples.

Results

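The genes described here are 7 genes used to mark pericytes and other mural cells, Rgs5, Pdgfrb, Cspg4, Kcnj8, Abcc9, Mcam and Rgs4, out of 19550 genes counted in 7808 cells. The members were taken by name, and all 7 were found in the deposited matrix. The list was chosen by a rule that had used measured values: Rgs5 had been seen to differ strongly between the pup regions, so that difference is given as a description only. The genes were read in the 1027 cells that carry the deposited smooth muscle label and the 3442 cells that carry the stromal label.

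The cells came from the esophagus, the gastroesophageal squamocolumnar junction (GE-SCJ) and the stomach of wild-type C57BL/6 mice at embryonic day 15 (E15), embryonic day 19 (E19), postnatal day 2 (pup) and 8 weeks (adult). No group carried a mutation or a treatment, and the labels give 6 mice at E15, 2 at E19, 2 pups and 3 adults, pooled within each region before tagging, though the methods of the study give another number of mice. Tagged cells of all regions and stages were run together in 1 droplet library in which unique molecular identifiers (UMIs) were counted at the 3′ end of transcripts. The 11 groups of region and stage with assigned cells are therefore 1 sample each, adult stomach was not analysed here, and no test between groups was possible. Levels are given in CPM, the UMIs of a gene divided by all UMIs of the group and scaled to 1000000, and every 95% interval, exact Poisson for a level and exact Clopper-Pearson for a share, covers counting error only, not the spread between mice.

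Mural cells surround blood vessels. Pericytes lie on capillaries inside the vessel's basement membrane, and vascular smooth muscle cells wrap arteries and veins. Endothelial cells recruit them by secreting PDGF-B, which binds the receptor encoded by Pdgfrb. Rgs5 and Rgs4 encode regulators of G protein signaling that switch off receptor signals, Kcnj8 and Abcc9 encode the pore and the regulatory subunit of the vascular ATP-sensitive potassium channel, and Cspg4 and Mcam encode cell surface proteins of contractile and perivascular cells. Several of these genes are also used by the visceral smooth muscle and the fibroblasts of the gut wall, so none of them defines a pericyte alone.

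Depth differed with stage. The smooth muscle groups held 106821 to 2417751 UMIs and the stromal groups 117209 to 6979256, and the median cell of a pup or adult group held 3859 to 6470 UMIs against 9025 to 13329 before birth. Both labels matched their markers: 10 smooth muscle genes summed to 23806 to 54969 CPM in the smooth muscle groups and 483 to 2785 CPM in the stromal groups, while 8 fibroblast genes summed to 3544 to 10893 CPM and 12185 to 48623 CPM. The fibroblast sum of smooth muscle cells was highest in pup GE-SCJ (9922 CPM) and pup stomach (10893 CPM), against at most 5204 CPM in the other 9 groups. Some adult-tagged cells lay among prenatal cells by their expression: more than 7 of their 15 nearest neighbours were E15 or E19 cells. They were 3 of 16 smooth muscle and 8 of 15 stromal cells of the adult GE-SCJ. In the adult esophagus it was 1 of 31 stromal cells. Levels that rest on these cells are given without them as well, or with the UMIs that they held. The 3 and 8 GE-SCJ cells had 2304 and 2159 CPM of H19, an imprinted RNA that declines after birth, against 451 and 337 CPM in the other cells.

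The members include a pair of neighbours on each of 2 chromosomes, and the bases before their start sites are shown because each pair is compared below. On GRCm38, Rgs5 (ENSMUSG00000026678.10) lies on chromosome 1 at 169655501 to 169695813 on the plus strand, and Rgs4 (ENSMUSG00000038530.11) at 169741477 to 169747642 on the minus strand, with 45.7 kb between their 3′ ends. Kcnj8 (ENSMUSG00000030247.9) lies on chromosome 6 at 142564837 to 142571614 and Abcc9 (ENSMUSG00000030249.15) at 142587862 to 142702315, both on the minus strand and 16.2 kb apart. RefSeq sequences of build GRCm38.p6 were used for these 4 members, 250 bases each but 209 for Abcc9, where exon bases of the annotation were left out, and the regions are chr1:169655251-169655500, chr1:169747643-169747892, chr6:142571615-142571864 and chr6:142702316-142702524. Capitals mark any match, on either strand, to TATAAA, to the GC box GGGCGG, to the RBPJ motif TGGGAA or to the CArG box of serum response factor.
Rgs5: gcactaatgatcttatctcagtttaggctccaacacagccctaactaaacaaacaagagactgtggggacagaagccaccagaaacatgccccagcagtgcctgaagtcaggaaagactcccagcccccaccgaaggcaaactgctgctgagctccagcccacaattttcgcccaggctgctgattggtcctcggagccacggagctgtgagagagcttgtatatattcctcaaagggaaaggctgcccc
Rgs4: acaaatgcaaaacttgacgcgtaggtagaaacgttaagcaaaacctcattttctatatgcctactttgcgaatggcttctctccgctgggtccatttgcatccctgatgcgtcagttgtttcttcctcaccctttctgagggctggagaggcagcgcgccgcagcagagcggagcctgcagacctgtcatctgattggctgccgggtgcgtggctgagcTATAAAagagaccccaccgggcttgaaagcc
Kcnj8: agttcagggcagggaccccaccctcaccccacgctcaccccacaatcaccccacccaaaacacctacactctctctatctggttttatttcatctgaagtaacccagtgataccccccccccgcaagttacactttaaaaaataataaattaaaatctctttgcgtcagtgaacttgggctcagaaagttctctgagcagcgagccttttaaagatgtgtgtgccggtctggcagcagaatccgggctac
Abcc9: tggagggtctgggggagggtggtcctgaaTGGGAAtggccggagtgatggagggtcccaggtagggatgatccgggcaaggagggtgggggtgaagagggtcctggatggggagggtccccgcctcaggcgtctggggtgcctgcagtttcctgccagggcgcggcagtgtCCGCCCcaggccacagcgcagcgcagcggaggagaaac

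Rgs4 held TATAAA at 31 to 26 bases before its start, a motif present in the same 250 bases of 12.4% of 32851 RefSeq promoters. Abcc9 held TGGGAA (21.6% of promoters) and GGGCGG on the opposite strand (32.7% of promoters). None of the 4 held a CArG box in this window, as was so for all but 1.47% of promoters, and Rgs5 and Kcnj8 held none of the 4 motifs. GC content was 53.6% before both Rgs5 and Rgs4, 49.2% before Kcnj8 and 68.4% before Abcc9. These matches describe the letters only, and binding was not measured.

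Across all groups, Rgs5 was detected at 237 CPM in smooth muscle and 170.2 CPM in stromal cells, the highest count of the 7 genes under both labels. Levels of different genes are given side by side only with this 3′ counting in mind, since capture can differ between transcripts. In smooth muscle the order below Rgs5 was Mcam (132 CPM), Abcc9 (86.1), Kcnj8 (78.5), Cspg4 (62.0), Pdgfrb (25.4) and Rgs4 (13.6). In stromal cells it was Pdgfrb (96.2 CPM), Abcc9 (88.8), Kcnj8 (62.0), Cspg4 (38.9), Mcam (20.95) and Rgs4 (9.89). The orders differed chiefly in Mcam and Pdgfrb, and the intervals of Pdgfrb (92.8 to 99.6) and Abcc9 (85.6 to 92.1) in stromal cells did not overlap. Outside both labels, Rgs5 was at 11.7 CPM in immune and 4.40 CPM in columnar epithelial cells. Mcam, also known from endothelium and nerve, reached 217 CPM in endothelial and 128 CPM in neural cells, and Kcnj8 reached 72.2 CPM in cells labelled Stromal-2. The 66.7 CPM of Rgs5 in the smaller squamous label came from 37 UMIs in 4 of 40 cells.

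Rgs5, which accelerates the shut-off of G protein signals, spanned 10.8 to 3157 CPM over the smooth muscle groups. Before birth its level was 70.6 CPM in esophagus, 49.6 CPM in GE-SCJ and 29.0 CPM in stomach at E15, and 10.8, 65.8 and 72.0 CPM in the same regions at E19. In the pup it was 78.5 CPM in esophagus (9 UMIs in 22 cells), 637 CPM in GE-SCJ (363 UMIs) and 1759 CPM in stomach (982 UMIs). In the adult it was 3157 CPM in esophagus (541 UMIs in 30 cells) and 1469.8 CPM in GE-SCJ (157 UMIs in 16 cells), where 86 UMIs lay in 1 cell and the level without it was 696 CPM. With all cells counted, adult esophagus was the highest group, followed by pup stomach (interval 1651 to 1873) and adult GE-SCJ (1249 to 1718), whose intervals overlapped, and by pup GE-SCJ. The next 5 groups, from pup esophagus down to E15 GE-SCJ, had overlapping intervals between 35.9 and 149 CPM for the first and 39.7 and 61.3 CPM for the last. Without the 3 adult GE-SCJ cells with prenatal neighbours, which held no Rgs5 UMI, the adult GE-SCJ level was 2528 CPM. The same removal took Pdgfrb there from 103.0 to 177 CPM, Mcam from 393 to 547 CPM and Kcnj8 from 149.8 to 48.3 CPM (3 UMIs).

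**Figure D1:**
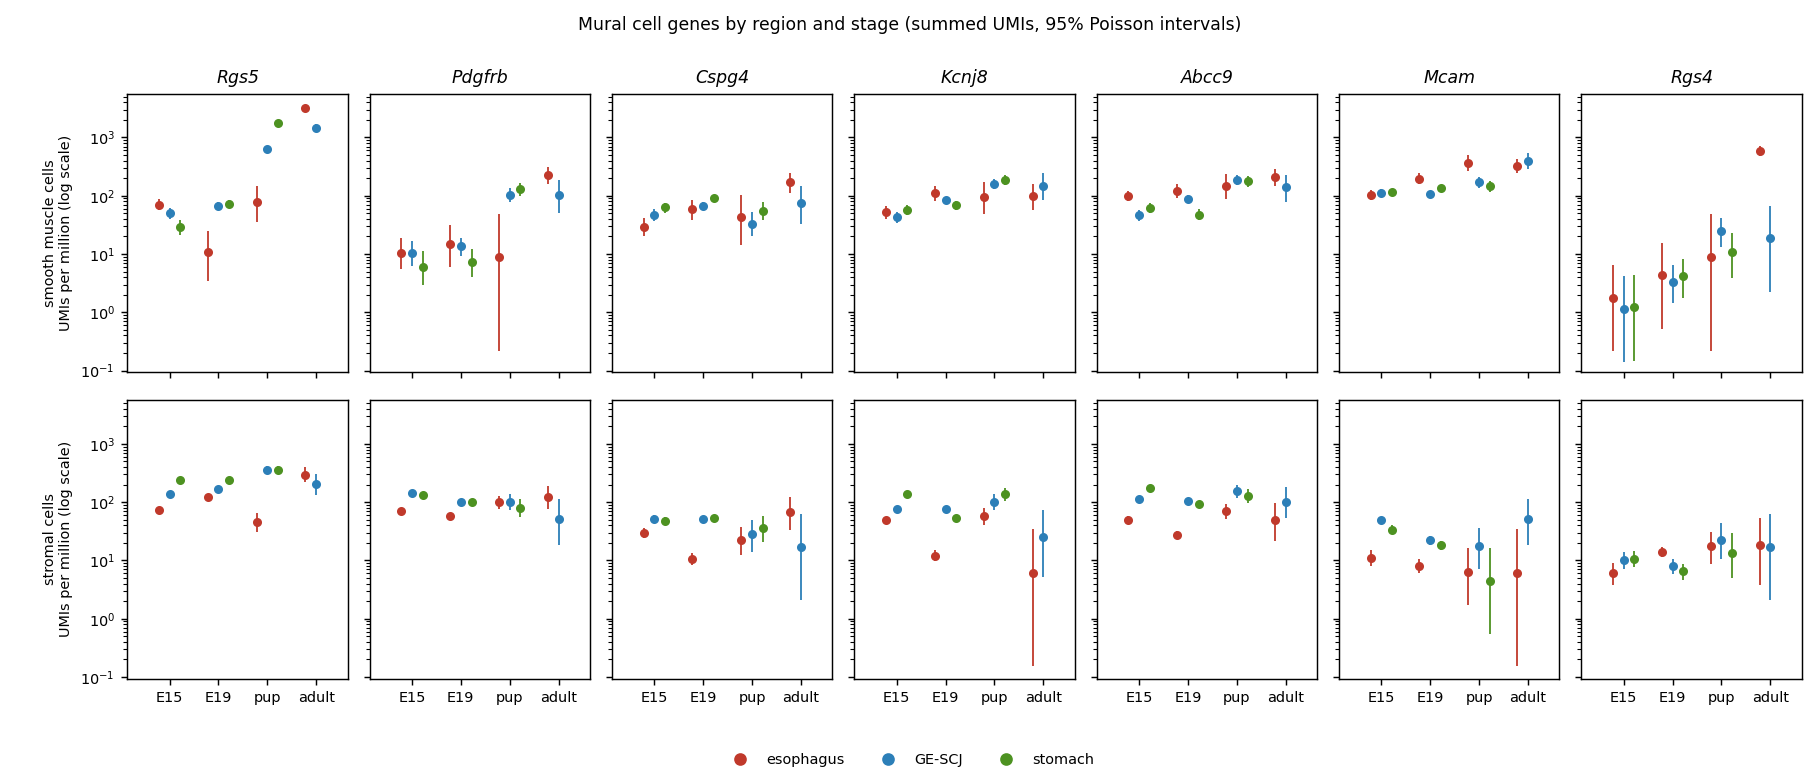
Level of each of the 7 genes in CPM (log scale) by stage, with smooth muscle cells above and stromal cells below, where each point is 1 region and stage and each bar its 95% Poisson interval. In smooth muscle Rgs5 and Pdgfrb were higher in pup GE-SCJ and stomach than at E15 and E19, while stromal Rgs5 stayed between 46.2 and 356 CPM.

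Stromal Rgs5 spanned a narrower range, 46.2 to 356 CPM. At E15 its level was 73.5 CPM in esophagus, 139.5 CPM in GE-SCJ and 245 CPM in stomach, and at E19 it was 122, 166 and 239 CPM. In the pup it was 46.2 CPM in esophagus, 356 CPM in GE-SCJ and 352 CPM in stomach, and in the adult 297 CPM in esophagus and 205 CPM in GE-SCJ. At each of the 3 stages with all regions, esophagus was the lowest region, and pup GE-SCJ and pup stomach could not be told apart by their intervals (299 to 420 and 299 to 411). Single cells weighed on some of these levels. In E15 esophagus 144 of 280 UMIs were in 1 cell, and the level without that cell was 35.9 CPM. In adult esophagus all 48 UMIs were in 1 cell of 1918 UMIs that had mostly prenatal neighbours, and in adult GE-SCJ the level without the 8 cells with prenatal neighbours was 303 CPM (9 UMIs in 7 cells). The other 30 adult esophagus cells held none.

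Detection in single cells followed a different order from the level. Of smooth muscle cells, 31.7% (interval 28.9 to 34.7) held at least 1 Rgs5 UMI, and of stromal cells 39.8% (38.2 to 41.5), with median depths of 9837 and 8940 UMIs. Free RNA in droplets also gives UMIs to cells that do not express a gene: 7.91% of immune cells (median 8266.5 UMIs) and 8.12% of columnar cells (median 25118 UMIs) were positive. After thinning each cell to 3000 UMIs, which left out 55 smooth muscle and 132 stromal cells of lower depth, the shares were 21.4% and 25.9%, against 2.38% of immune and 1.45% of columnar cells. Both labels therefore lay above this background as a whole, though not in every group. Thinned shares of E15 smooth muscle were 5.43% in esophagus, 6.92% in GE-SCJ and 4.5% in stomach, and their intervals reached down to 1.79, 3.21 and 1.48%, all under the upper bound of 7.60% for E15 immune cells (1.41%). In the pup, by contrast, thinned shares were 57.4% of GE-SCJ and 73.7% of stomach smooth muscle cells, and 11.1% (2 of 18 cells) in esophagus.

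**Figure D2:**
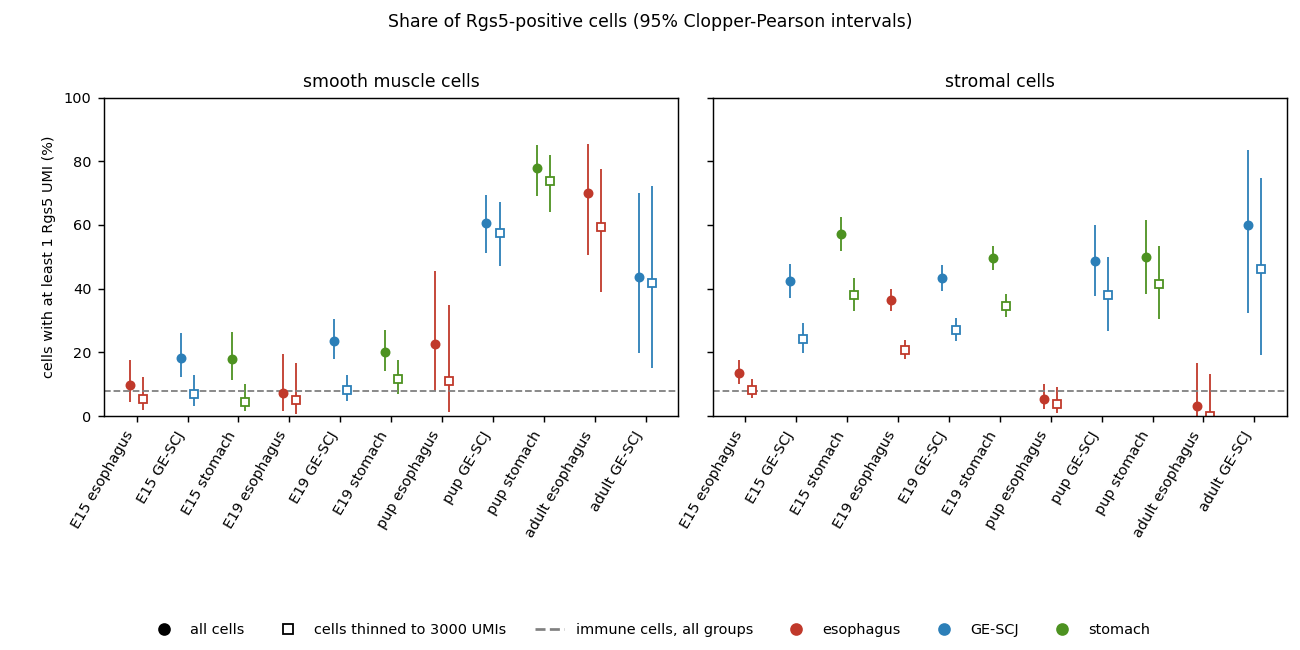
Share of cells with at least 1 Rgs5 UMI in percent by region and stage, for smooth muscle (left) and stromal cells (right), with filled circles for all cells, open squares for cells thinned to 3000 UMIs, bars for 95% Clopper-Pearson intervals and a dashed line for immune cells before thinning (7.91%). Pup GE-SCJ (60.5%), pup stomach (77.9%) and adult esophagus (70.0%) smooth muscle stand above the prenatal groups (7.14 to 23.7%), while stromal esophagus is low in the pup (5.30%) and adult (3.23%).

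In stromal cells the same shares were lowest in esophagus and highest in stomach before birth. Positive were 13.5% of cells in E15 esophagus, 42.3% in GE-SCJ and 57.2% in stomach. At E19 they were 36.4, 43.4 and 49.6%, and in the pup 5.30, 48.8 and 50%. The pup esophagus share, 8 of 151 cells (interval 2.31 to 10.2), overlapped that of pup immune cells, 2.33% (0.283 to 8.15). Its level, 46.2 CPM (30.9 to 66.3), lay above the 6.58 CPM of pup immune cells (1.79 to 16.9), but 14 of its 29 UMIs were in 1 cell and the level without that cell was 24.0 CPM.

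Rgs5 UMIs were gathered in few smooth muscle cells and spread over many stromal cells. Of 2569 smooth muscle UMIs, 71.6% lay in the 70 cells with at least 10 UMIs, and 31 of 1027 cells held the larger part of all. Of 5524 stromal UMIs, 30.4% lay in 108 such cells, and 253 of 3442 cells were needed for the same part. In esophagus and GE-SCJ at E15 the smooth muscle level rested on few cells: 2 of 93 cells held 83.8% of the UMIs in esophagus, and 3 of 131 held 68.6% in GE-SCJ. Without cells of 10 or more UMIs those levels were 11.7 and 15.9 CPM. E15 stomach and E19 esophagus had no such cell, and such cells held 43.4% of the UMIs in E19 GE-SCJ and 48.9% in E19 stomach. In the pup such cells held 41.0% of the UMIs in GE-SCJ and 79.9% in stomach. Leaving them out left 410.4 CPM in pup GE-SCJ and 509 CPM in pup stomach, so pup cells with few UMIs each also carried Rgs5. In adult esophagus 12 of 30 cells held 92.4% of the UMIs.

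**Figure D3:**
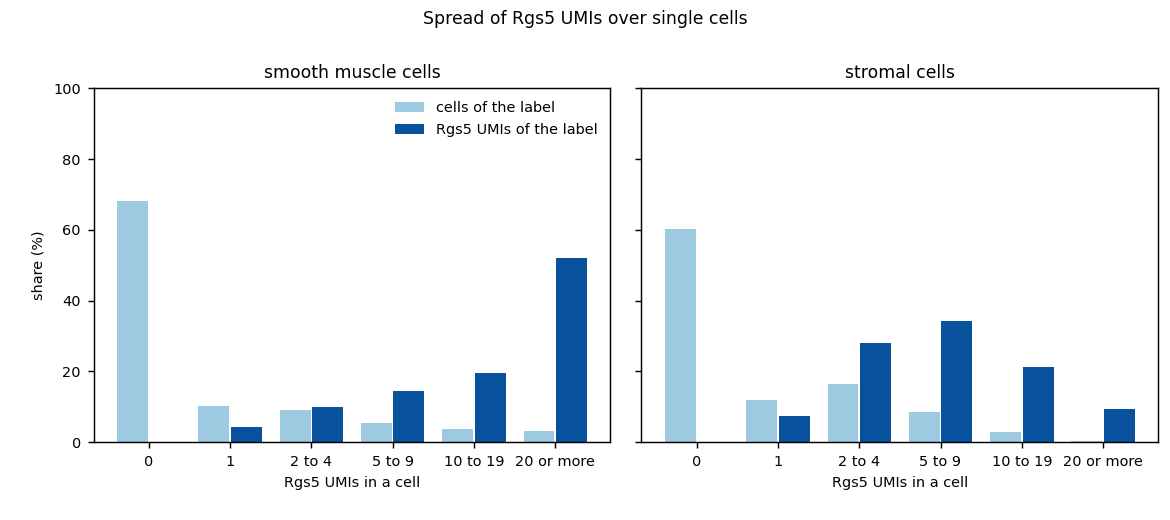
Cells of each label (light bars) and their Rgs5 UMIs (dark bars), as shares in percent, by the number of Rgs5 UMIs in a cell. Cells with 20 or more UMIs were 3.21% of smooth muscle cells and held 52.1% of the UMIs, against 0.378% and 9.32% of stromal cells.

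The deposited clusters of the smooth muscle label separated these cells. Cluster 11 (248 cells, median 4559 UMIs) had 1702 CPM of Rgs5 and 73.0% positive cells, and cluster 4 (779 cells, median 11517 UMIs) had 43.7 CPM and 18.6%. Since clusters were formed on the same expression values, this is a description. Cluster 11 held 95 of 119 cells in pup GE-SCJ and 101 of 113 in pup stomach, but 3 of 22 in pup esophagus and 1 to 6 cells in each prenatal group. Within cluster 4 alone, Rgs5 was still at 481 CPM in pup GE-SCJ (24 cells) and 334 CPM in pup stomach (12 cells), against 4.42 to 53.3 CPM in the prenatal groups. Cluster 11 also had 152.7 CPM of Pdgfrb against 8.66 in cluster 4, with lower Acta2, the smooth muscle actin (7427 against 13299.6 CPM), and lower Myh11, the smooth muscle myosin heavy chain (1862 against 3985 CPM). Its Mcam (136.9 against 131.6 CPM) had overlapping intervals.

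Pdgfrb, the receptor for PDGF-B, was low in prenatal smooth muscle and higher in the pup and adult groups other than pup esophagus. Its level was 10.6 CPM in esophagus, 10.4 CPM in GE-SCJ and 6.05 CPM in stomach at E15, and 15.1, 13.7 and 7.25 CPM at E19. In the pup it was 8.72 CPM in esophagus (1 UMI), 103.6 CPM in GE-SCJ (59 UMIs) and 129 CPM in stomach (72 UMIs), and in the adult 228 CPM in esophagus and 103.0 CPM in GE-SCJ (29.4 CPM without 1 cell that held 8 of 11 UMIs). Pup GE-SCJ and stomach are also the groups with the higher fibroblast marker sums given above, and Pdgfra, a fibroblast receptor, was at 121 and 156 CPM there. The part of fibroblast RNA in this difference was not tested. In stromal cells Pdgfrb was more even, from 51.2 CPM in adult GE-SCJ (6 UMIs) to 143 CPM in E15 GE-SCJ, and it was detected in 26.7 to 54.9% of cells in each group. Of the 6 adult GE-SCJ UMIs 5 lay in the cells with prenatal neighbours, and the level without those cells was 33.7 CPM (1 UMI). Prenatal stromal levels were lower in esophagus (70.1 CPM at E15 and 57.5 CPM at E19) than in GE-SCJ (143 and 100.9 CPM) or stomach (133 and 100.4 CPM), with intervals apart at both stages.

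The channel genes Kcnj8 and Abcc9 had similar profiles. In smooth muscle Kcnj8 ranged from 42.7 CPM (E15 GE-SCJ) to 188 CPM (pup stomach) and Abcc9 from 46.2 CPM (E15 GE-SCJ) to 210.0 CPM (adult esophagus). Abcc9 was at 188 CPM in pup GE-SCJ and 177 CPM in pup stomach, where Kcnj8 was at 159.8 and 188 CPM, so there the genes for the pore and the regulatory subunit were counted at like levels. Like levels were not particular to the pup. In E15 stomach Kcnj8 was at 56.9 and Abcc9 at 62.3 CPM, and in E19 GE-SCJ at 83.1 and 89.3 CPM. In other groups the counts differed in either direction. In E15 esophagus Abcc9 was at 99.7 CPM against 52.0 CPM of Kcnj8, and in E19 stomach at 47.7 against 68.9 CPM. In stromal cells both were lowest before birth in E19 esophagus, at 12.0 CPM for Kcnj8 and 27.8 CPM for Abcc9. E15 stomach had 136 CPM of Kcnj8 and 176 CPM of Abcc9, the highest prenatal values. Their paralogs of the pancreatic channel, Kcnj11 and Abcc8, were at 0.83 and 1.38 CPM in smooth muscle and at 0.34 and 1.08 CPM in stromal cells.

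Mcam, a cell adhesion molecule of the immunoglobulin family, followed the smooth muscle label. Its level in smooth muscle ran from 104.1 CPM (E15 esophagus) to 393 CPM (adult GE-SCJ), and 31.1 to 86.7% of cells were positive. Pup esophagus had 366 CPM, against 170.3 CPM in pup GE-SCJ and 146.9 CPM in pup stomach. In stromal cells Mcam was highest in adult GE-SCJ (51.2 CPM, 6 UMIs, of which 5 lay in the cells with prenatal neighbours), E15 GE-SCJ (49.1 CPM) and E15 stomach (33.8 CPM), and was at 4.48 CPM in pup stomach (2 UMIs). Cspg4, the NG2 proteoglycan, stayed between 29.1 CPM (E15 esophagus) and 169 CPM (adult esophagus) in smooth muscle. In stromal cells it ran from 10.8 CPM (E19 esophagus) to 68.1 CPM (adult esophagus, 11 UMIs), and prenatal GE-SCJ and stomach lay between 47.4 and 53.1 CPM with overlapping intervals.

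Rgs4, a close relative of Rgs5, was near absent from prenatal smooth muscle and concentrated in adult esophagus. It was at 1.15 to 1.76 CPM at E15 (2 UMIs in each region) and 3.31 to 4.32 CPM at E19. In the pup it was at 8.72 CPM in esophagus (1 UMI), 24.6 CPM in GE-SCJ (14 UMIs) and 10.7 CPM in stomach (6 UMIs). Adult esophagus had 589 CPM (101 UMIs), of which 4 of 30 cells held 68.3%, and adult GE-SCJ had 18.7 CPM (2 UMIs). The same adult esophagus cells had 140.0 CPM over 9 endothelial markers, against 10.8 to 48.4 CPM in the other smooth muscle groups. Only 3 of the 9 were detected there, and Pecam1, Cdh5, Kdr, Egfl7, Cldn5 and Tie1 were all at 0. In stromal cells Rgs4 stayed between 6.04 and 22.9 CPM. E19 esophagus departed from the order of the other members there: Rgs4 was at 14.2 CPM in esophagus and 6.50 CPM in stomach, a log2 ratio of stomach over esophagus of -1.11 (-1.65 to -0.58), while the other 6 genes were higher in stomach by 0.80 to 2.29.

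To compare the labels with region and stage held fixed, UMIs in smooth muscle cells were set against those expected from stromal cells of the same group, and a gene was called past 2-fold at a log2 ratio of 1. Of 13609 genes with at least 50 UMIs, 5.48% were higher in smooth muscle and 11.2% lower, and of the 7 members, all measured at that depth, 1 was higher and 1 lower. Mcam was higher at a log2 ratio of 2.43, and Pdgfrb was lower at -2.06. The other 5 lay between -0.34 (Abcc9) and 0.47 (Cspg4), and the median of the members was 0.27 against -0.21 for all genes. Rgs5 itself was at 0.27. Of 13 other mural genes measured at that depth, 11 were past 2-fold lower in smooth muscle, among them Notch3, the Notch receptor of mural cells (-1.13), and Heyl, a Notch target gene (-3.11).

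Between pup and E15, more members were past 2-fold higher in smooth muscle than in stromal cells in GE-SCJ and stomach. In esophagus it was 1 of 4 measured members against 0 of 5. In smooth muscle of the GE-SCJ, 4 of the 6 members with at least 50 UMIs were past 2-fold higher in the pup, against 11.4% of 6319 genes, and in stomach the same 4 of 6, against 10.9% of 6331 genes. These were Rgs5, Pdgfrb, Kcnj8 and Abcc9. The rule had used the pup values of Rgs5, so its place in these counts and its ratios below are descriptions only. Pdgfrb reached 50 UMIs only through the pup, with 59 UMIs there against 18 at E15 in GE-SCJ and 72 against 10 in stomach. The place of Pdgfrb in these counts is a description only as well. Rgs5 differed by 3.67 (3.33 to 4.02) in GE-SCJ and 5.89 (5.48 to 6.34) in stomach on the log2 scale, with 1 UMI added to each sum. The same values were 3.26 and 4.30 for Pdgfrb, 1.90 and 1.72 for Kcnj8, and 2.02 and 1.51 for Abcc9. Cspg4 was at -0.43 (-1.21 to 0.29) in GE-SCJ and -0.15 (-0.77 to 0.44) in stomach, intervals that hold 0. In esophagus, 1 of 4 measured members was past 2-fold higher, Mcam at 1.84 (1.30 to 2.35), against 9.23% of 3704 genes. Rgs5 was at 0.29 (-0.83 to 1.24) there, a value that depended on which cells were counted. Of the 80 E15 esophagus UMIs of Rgs5, 67 lay in 2 of 93 cells. The E15 level was 27.7 CPM without the richest cell and 11.7 CPM without both. Pup esophagus was higher than either, at 78.5 CPM (9 UMIs), or 45.5 CPM without its own richest cell.

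In stromal cells few members were past 2-fold between pup and E15. Of 6 measured, Rgs5 was past 2-fold higher in GE-SCJ at 1.36 (9.43% of 8724 genes were), and Mcam was past 2-fold lower in GE-SCJ at -1.28 (13.7% of genes) and in stomach at -2.34 (11.3% of 8948 genes). In esophagus none of 5 was past 2-fold in either direction, where 9.91% of 8813 genes were higher and 12.9% lower. Kcnj8 differed by 0.05 to 0.44 in the 3 regions, and its intervals held 0 in each.

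**Figure D4:**
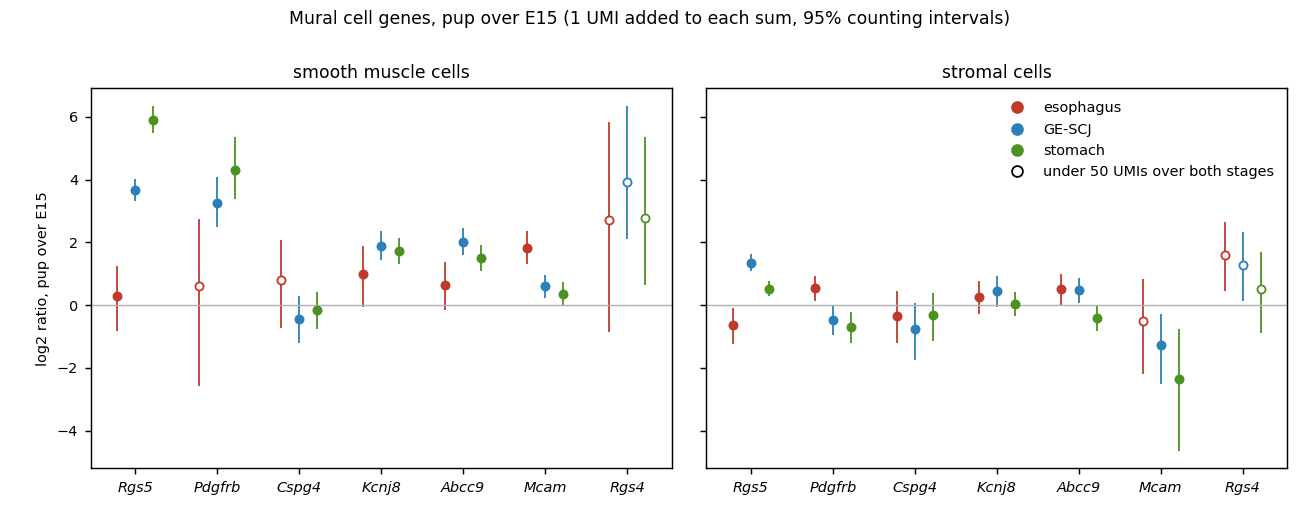
Log2 ratio of pup over E15 levels of each gene (1 UMI added to each sum), with 1 point per region, 95% counting intervals as bars and open points for genes under 50 UMIs over both stages. Rgs5, Pdgfrb, Kcnj8 and Abcc9 lie above 1 in GE-SCJ and stomach smooth muscle (left), and the stromal ratios (right) of these genes in those regions lie nearer 0. Stromal Mcam lies below 0 in those regions, and further from 0 than Mcam in smooth muscle.

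The pup regions were the contrast in which Rgs5 had been noticed, so the following values are descriptive. Rgs5 was higher in pup stomach than in pup esophagus by a log2 ratio of 4.34 (3.45 to 5.40) in smooth muscle and 2.89 (2.32 to 3.50) in stromal cells. In smooth muscle, 2 of 5 measured members were past 2-fold higher, Rgs5 and Pdgfrb (12.7% of 2275 genes), and Mcam was past 2-fold lower at -1.34 (5.23% of genes). In stromal cells, 2 of 4 were past 2-fold higher, Rgs5 and Kcnj8 at 1.26 (2.70% of 3706 genes). Pup esophagus smooth muscle held 22 cells and 114633 UMIs, the second lowest total of a smooth muscle group, and 5 skeletal muscle genes summed to 689 CPM there, against 28.7 CPM in pup stomach. Before birth the same stromal contrast for Rgs5 was 1.73 (1.54 to 1.93) at E15 and 0.97 (0.85 to 1.09) at E19, and in smooth muscle it was -1.27 (-1.81 to -0.74) and 2.48 (1.32 to 3.95). The negative E15 value rested on 1 cell with 49 of the 80 esophagus UMIs: without it esophagus was at 27.7 CPM against 29.0 CPM in stomach. With the top stomach cell (8 of 48 UMIs) also left out, stomach was at 24.7 CPM. The levels were then close, and the E15 direction depended on which cells were counted. The E19 value rested on 5 esophagus UMIs.

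Within single smooth muscle cells, most members were counted at like levels whether or not Rgs5 was detected when summed over all regions and stages, though not at each stage. With region and stage held fixed, 1 of 6 members was past 2-fold higher in the 326 Rgs5-positive cells than in the 701 negative cells, against 1.13% of 10795 genes. This was Rgs4, at a log2 ratio of 1.79 (1.09 to 2.49), from 114 UMIs in positive cells where 32.2 were expected. Mcam was at 0.26 (0.04 to 0.48), and Pdgfrb, Cspg4, Kcnj8 and Abcc9 lay between -0.09 and 0.21 with intervals that hold 0. The Rgs4 value rested on the adult: of the 114 UMIs 92 were in adult cells, and with adult cells left out, or with every cell thinned to 3000 UMIs, 0 members were past 2-fold. Positive cells were shallower than negative ones, at medians of 6234.5 and 11021 UMIs, and 165 of the 326 were pup cells.

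Shares of co-detection are given beside these ratios. Pdgfrb was found in 25.2% of Rgs5-positive and 12.4% of Rgs5-negative smooth muscle cells, Mcam in 54.6 and 61.1%, Abcc9 in 48.5 and 47.5%, Kcnj8 in 45.7 and 44.8%, Cspg4 in 31.6 and 39.8% and Rgs4 in 8.59 and 3.14%. After thinning to 3000 UMIs, which takes away the depth gap but not that of stage, the shares were 19.7 and 5.24% for Pdgfrb, 37.0 and 18.98% for Abcc9 and 29.8 and 18.6% for Kcnj8. Since pup and adult cells make up more of the positive cells, these pooled shares mix stage with Rgs5. With a stricter class of at least 5 Rgs5 UMIs (126 cells), Pdgfrb was at 0.56 (0.05 to 1.07), Kcnj8 at 0.47 (0.05 to 0.88) and Mcam at 0.37 (0.03 to 0.72) with region and stage held fixed.

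In stromal cells every other member was higher beside Rgs5 when summed over all regions and stages, though not at each stage. Of 6 members 2 were past 2-fold higher in the 1370 positive than in the 2072 negative cells, against 0.421% of 13077 genes. These were Rgs4 at 1.98 (1.57 to 2.39) and Mcam at 1.21 (0.97 to 1.45). Without cells that held a UMI of Pecam1, Cdh5, Ptprc or Epcam, genes of endothelial, immune and epithelial cells, 1 was past 2-fold, Rgs4, and the same was so after thinning. The others were at 0.55 (Abcc9), 0.53 (Pdgfrb), 0.24 (Kcnj8) and 0.23 (Cspg4), and the intervals of all 6 lay above 0. Smooth muscle had fewer positive cells (326) and wider intervals. There the intervals of Pdgfrb, Cspg4, Kcnj8 and Rgs4 held the stromal values, and those of Abcc9 and Mcam did not. Median depths of positive and negative cells were closer here, at 9464.5 and 8531 UMIs. Rgs4 was found in 11.7% of positive and 3.04% of negative cells, and after thinning in 5.61 and 1.63%. The ratios were larger in cells with at least 5 Rgs5 UMIs (404 cells), from 0.41 for Kcnj8 to 1.55 for Mcam and 2.19 for Rgs4.

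**Figure D5:**
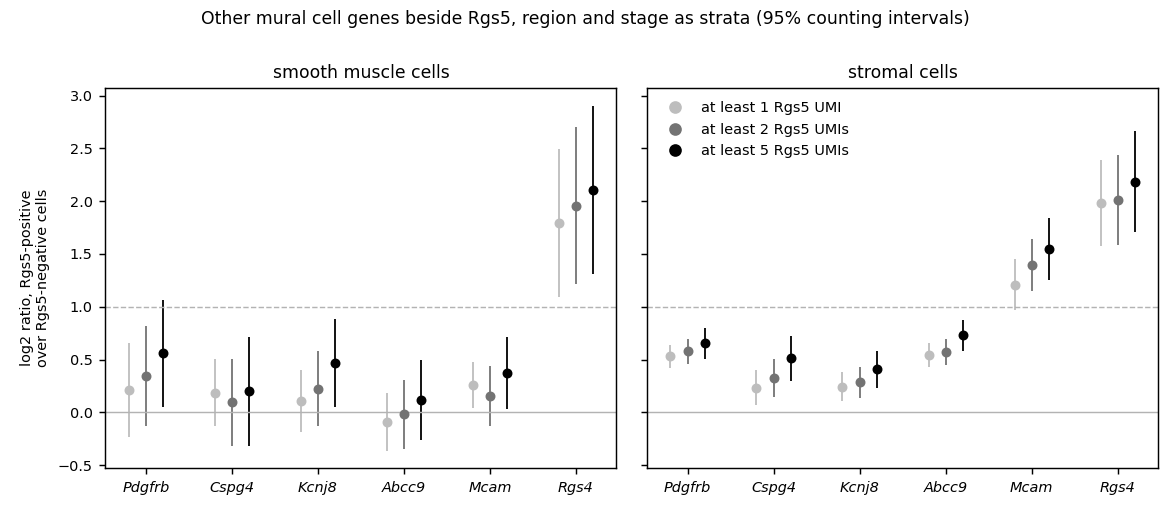
Log2 ratio of each gene in Rgs5-positive over Rgs5-negative cells with region and stage held fixed, for smooth muscle (left) and stromal cells (right), by the least number of Rgs5 UMIs in a positive cell, with 95% counting intervals as bars and a dashed line at 2-fold. Rgs4 lies above 2-fold under both labels, Mcam only in stromal cells.

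The stage at which members went with Rgs5 differed between genes. In E15 stromal cells Mcam was at 2.06 (1.67 to 2.44) and Pdgfrb at 1.02 (0.84 to 1.20), and at E19 the same values were 0.46 (0.14 to 0.79) and 0.21 (0.07 to 0.35). Rgs4 went the other way, from 1.26 (0.61 to 1.91) at E15 to 2.49 (1.97 to 3.01) at E19. Stromal Cspg4 was at 0.70 (0.41 to 0.99) at E15 and -0.09 (-0.30 to 0.12) at E19. Stromal Kcnj8 was at 0.12 (-0.07 to 0.32) at E15 and 0.34 (0.15 to 0.53) at E19. In smooth muscle Cspg4 was at 1.07 (0.66 to 1.48) at E15 and 0.01 (-0.36 to 0.38) at E19, and Pdgfrb at 0.29 (-0.76 to 1.34) and 1.61 (0.86 to 2.35). In the pup, smooth muscle Pdgfrb was at -0.26 (-0.82 to 0.30) and Kcnj8 at 0.10 (-0.39 to 0.59). Adult values were 1.10 (0.08 to 2.11) for Pdgfrb and 1.67 (0.77 to 2.56) for Kcnj8. The Kcnj8 value rested on few cells: of 19 UMIs in positive cells, 12 lay in 1 adult esophagus cell. Of the 14 in negative cells, 13 lay in the 3 adult GE-SCJ cells with prenatal neighbours. No ratio without these cells was computed. Adult Cspg4 was at 0.43 (-0.62 to 1.49), Abcc9 at 0.55 (-0.38 to 1.48) and Mcam at 0.38 (-0.29 to 1.05). These stage differences were not tested.

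Cells with many members were rare. At least 5 of the 7 genes were detected in 49 of 1027 smooth muscle cells, 4.77% (3.55 to 6.26), in 198 of 3442 stromal cells, 5.75%, and in 4 of 1540 columnar and 0 of 354 immune cells, which for the latter, at 3 counts for a 0, allows a share of up to 0.847%. After thinning to 3000 UMIs the shares were 0.926% and 0.755%, so the shares depended on depth. All 7 were found in 1 smooth muscle and 5 stromal cells. E15 stomach (16.4%) and E15 GE-SCJ (12.0%) led among stromal groups and adult esophagus (7 of 30 cells) among smooth muscle groups. No member was detected in 17.1% of stromal and 4.77% of smooth muscle cells. The stromal cells with at least 5 members, chosen on these genes, had 182 CPM of Notch3 against 44.7 CPM in the other stromal cells, 149.99 against 12.5 CPM of Heyl, and 3048 against 7237 CPM of Col1a1, the main fibrillar collagen chain. Not all other mural genes were higher in them. Tbx18 was at 4.77 against 26.1 CPM, Anpep at 18.0 against 33.4 CPM and Angpt1 at 34.8 against 38.9 CPM. Region and stage were not held fixed here. Of these 198 cells 59 came from E15 stomach, 42 from E15 GE-SCJ and 5 from E19 esophagus. The 8 fibroblast genes summed to 12185, 15620 and 48623 CPM in the stromal cells of those groups, so the values mix region and stage with the number of members.

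The list of other mural genes holds 15 genes that are no members. In smooth muscle 5 of 8 measured were past 2-fold higher in Rgs5-positive cells (median log2 ratio 1.22), against 1.13% of 10795 genes. Notch3 was among them at 1.24 (0.77 to 1.70). The 15 genes summed to 1669 CPM in adult esophagus smooth muscle, against 45.4 to 477 CPM in the other smooth muscle groups. The list was not counted again without adult cells. In stromal cells 4 of 12 were past 2-fold higher (median 0.81), against 0.421% of 13077 genes. Heyl was among them at 1.35 (1.12 to 1.59), and Notch3 was at 0.84. Higd1b and Vtn, used to tell pericytes from other mural cells, stayed near 0: smooth muscle held 17 and 13 UMIs in all, 16 and 6 of them in adult esophagus. In that group Notch3 was at 368 CPM, Higd1b at 93.4 CPM and Vtn at 35.0 CPM. Pup GE-SCJ smooth muscle, by contrast, held no Notch3, Higd1b or Vtn UMI beside its 637 CPM of Rgs5, and the limit for each was 5.27 CPM. Other genes of the list were present there: 10 of 15 were detected. They summed to 216 CPM, against 45.4 to 131 CPM in the prenatal smooth muscle groups. Pup stomach had 39.4 CPM of Notch3.

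Among the ligands, Pdgfb, the endothelial signal to Pdgfrb, was at 2.03 CPM in smooth muscle and 1.05 CPM in stromal cells. Of the 5 ligand and receptor genes, 3 were past 2-fold higher in smooth muscle than in stromal cells, against 5.48% of 13609 genes. These were Pdgfa (119 CPM) at 1.69, Pdgfc (59.9 CPM) at 2.20 and Pdgfb at 1.24, the last from levels near 0. The other receptor, Pdgfra, a fibroblast marker, was past 2-fold lower at -3.06, as were 11.2% of genes. Pdgfra was also lower in Rgs5-positive smooth muscle, at -1.16 (-1.55 to -0.76). Of the R4 family of RGS genes, to which Rgs4 and Rgs5 belong, 6 of 8 were in the matrix. Of the 3 with enough UMIs, 1 was past 2-fold higher in smooth muscle, against the same 5.48% of genes. This was Rgs2, with 398 CPM against 22.3 CPM in stromal cells. It was lowest in adult esophagus smooth muscle at 35.0 CPM, the group with the most Rgs5. Rgs16 was past 2-fold higher in Rgs5-positive smooth muscle at 1.29 (0.37 to 2.21). Of 3 endothelial partner genes with enough UMIs, 1 was past 2-fold lower in smooth muscle, against 11.2% of genes. This was Tek, the angiopoietin receptor, at -3.82, and Jag1, a Notch ligand, was at 0.68.

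Profiles over 55 groups of label, region and stage with at least 20 cells were compared by Pearson's r of log2(CPM + 10), as a description, since the groups share 1 library and differ in depth. Among 14757 genes the 10 most like Rgs5 were Tmem100 (r = 0.88), Cped1 (0.87), Aspn (0.86), Pdgfrb (0.86), Abcc9 (0.85), Gucy1b1 (0.85), Fgf7 (0.85), Itga8 (0.84), Kcne4 (0.84) and 4833412C05Rik (0.84). Of the other members, Cspg4 ranked 58 (0.76), Kcnj8 91 (0.74), Rgs4 320 (0.65) and Mcam 2882 (0.30). The channel pair was closer to each other than to Rgs5: Kcnj8 and Abcc9 had r = 0.92, rank 3 and rank 2 in each other's lists. The neighbours Rgs5 and Rgs4 had r = 0.65. Rgs4 was at 589 CPM in adult esophagus smooth muscle and at most 24.6 CPM in the other smooth muscle and stromal groups. The 10 CPM added before the log flattens such low levels, and r was not computed without adult esophagus smooth muscle.

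Beside the fixed lists, the genes with the largest ratio in Rgs5-positive smooth muscle cells were Pyy, Olfr558, Pcsk2, Sst, Chga, Pi15, Shisa3, Inpp4b, Cxcl1 and Ccl11. Pyy, Pcsk2, Sst and Chga are endocrine genes, and 97.6, 98.4, 93.9 and 57.2% of their UMIs in positive cells came from 1 cell each. Olfr558, an odorant receptor gene, had 55 UMIs in 4.29% of positive cells at 4.14 (2.17 to 6.11), and Pi15, a secreted protein of the CAP family, was in 17.5% at 2.65 (1.76 to 3.54). In stromal cells the 10 were Gm32913, Reln, Sorcs3, Chgb, Rgs4, Ltf, Hrk, Hspb2, Aoc3 and Calhm5, so Rgs4 ranked 5 of 11505 genes. Of these Chgb, Ltf and Gm32913 lay mostly in 1 cell each (89.3, 79.0 and 56.9% of their UMIs in positive cells). Aoc3, a vascular amine oxidase, was in 12.0% of positive cells at 1.39 (1.09 to 1.70).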

How the data were processed

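Cells of 11 groups of region and stage were tagged, pooled and sequenced as 1 droplet library. The authors counted UMIs with Cell Ranger 6.1.1 on the mouse mm10 reference, assigned cells to tags, filtered them on genes, UMIs and mitochondrial share, left out further cells of poor read counts, and deposited raw UMI counts per gene and cell. They clustered and labelled the cells in Seurat, and the deposited table gives each cell's label, cluster, total counts and mitochondrial percent. Total counts and tags agreed between the deposited files for all 7808 cells, and 0 barcodes were listed more than once. Doublets were not called again, since the authors had set upper limits on genes and UMIs against them and only cells with 1 assigned tag were used.

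UMIs were summed per label, region and stage (Python 3.11.15, numpy 2.4.6, scipy 1.17.1). A group is 1 pooled sample, so no p-value was computed. Ratios had 1 UMI added to each sum and an exact interval conditional on both sums. Comparisons over groups divided observed by expected UMIs, with region and stage as strata and an approximate interval. Genes needed 50 UMIs over both sides, and a sum of 0 was read as at most 3 UMIs. Cells were thinned to 3000 UMIs to compare shares, with 5000 as an alternative. Upstream bases came from RefSeq, where 6 of 7 members had an entry and 4 were used. The ratios of 2 groups and the stratified ratios were tested on simulated Poisson sums, in which UMIs do not gather in single cells. Their intervals were not tested for such gathering, and thinning, nearest neighbours and profile likeness were not simulated.

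The members and lists were chosen with earlier results of these data known. Named genes are the 7 members in every group, the 10 genes most like Rgs5 by profile, the 10 with the largest ratio beside Rgs5 in each label with at least 50 UMIs in positive cells, and at most 4 genes from each context list. The other mural genes that were lower in stromal cells with many members are named as well. Alternatives were another mean, library size, cell filter, fold, positive class and depth.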

Additional observations from a re-analysis of the deposited data

Results flagged for a closer look

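Between pup and E15 stromal cells, 3 members differed in opposite directions in different regions with all cells counted, each with a counting interval clear of 0. Rgs5 was at -0.63 (-1.22 to -0.08) in esophagus, 1.36 (1.08 to 1.63) in GE-SCJ and 0.53 (0.28 to 0.78) in stomach on the log2 scale. Pdgfrb was at 0.53 (0.12 to 0.93) in esophagus, -0.46 (-0.955 to -0.0007) in GE-SCJ and -0.69 (-1.21 to -0.20) in stomach. Abcc9 was at 0.52 (0.02 to 0.998) in esophagus, 0.49 (0.08 to 0.88) in GE-SCJ and -0.41 (-0.82 to -0.03) in stomach. Several of these bounds lay close to 0, and the intervals cover counting error only. Each region and stage is 1 pooled sample, so the difference between regions was not tested, and the direction of Rgs5 in esophagus rested on 1 cell: without the E15 cell that held 144 of 280 UMIs, E15 esophagus was at 35.9 CPM against 46.2 CPM in the pup, so the direction turned, and with the pup cell that held 14 of 29 UMIs also left out the pup was at 24.0 CPM.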

How the results depend on the processing

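A reversed direction was looked for only in ratios of at least 1 in size on the log2 scale, and none of these reversed. The removals of single cells described above, which bore on direction, were not among these alternatives. Of all values, 45 stayed within the counting interval or 1.5 times the count, and the 21 that moved further are given here. For smooth muscle Rgs5 between pup and E15, the esophagus ratio went from 0.29 to 1.49 without cells holding a UMI of Pecam1, Cdh5, Ptprc or Epcam and to 2.02 in deposited cluster 4 alone. The GE-SCJ ratio of 3.67 became 3.02 as a mean of each cell's CPM, 4.62 without the 1% of cells richest in Rgs5, 4.09 without the marker cells and 4.45 in cluster 4. The stomach ratio of 5.89 became 3.91 in cluster 4. Between pup stomach and pup esophagus the smooth muscle ratio of 4.34 became 2.75 in cluster 4, and the stromal ratio of 2.89 became 4.31 without the richest 1% of cells. Of members past 2-fold beside Rgs5 in smooth muscle, 1 became 2 with all groups pooled, 0 without adult cells and 0 after thinning to 3000 UMIs. In stromal cells 2 became 1 at 3-fold, 1 without the marker cells and 1 after thinning. The Rgs5-positive share of smooth muscle, 31.7%, became 21.4% at 2 UMIs or after thinning to 3000 UMIs and 19.7% at 5000. That of stromal cells, 39.8%, became 28.1, 25.9 and 33.1%. The cause was not tested. The alternatives with cluster 4, or without adult cells that have prenatal neighbours, were chosen after seeing the data. No paired analysis was possible because each region and stage is 1 pooled sample. Among smooth muscle groups, pup esophagus and the adult groups hold the fewest UMIs, so a gene at 0 in pup esophagus smooth muscle may reach 26.2 CPM.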
